A study of Homo sapiens with 2 samples.

Results

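The 8 human ephrin genes, EFNA1 to EFNA5 and EFNB1 to EFNB3, were examined by RNA-Seq in 2 prostate cancer (PCa) lines, namely MDA PCa 2b as well as RC77 T/E. They were taken by gene symbol, and all 8 of 8 were among the 21382 genes of the deposited table, with 1 locus each. Both lines are established human lines and were left untreated. MDA PCa 2b was grown in an F-12 medium with fetal bovine serum, cholera toxin, epidermal growth factor, phosphoethanolamine, hydrocortisone, selenite and insulin, and RC77 T/E in a serum-free keratinocyte medium to which bovine pituitary extract and the same growth factor were added. Line and medium therefore cannot be told apart. Each line is represented by 1 library of total RNA, so no value has a replicate error and no p-value can be given for any difference. Levels are in TPM, a measure of transcript abundance in which reads are scaled by transcript length and by the total of the library. TPM does not keep the number of reads, so the depth of the libraries is unknown.

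Ephrins are ligands anchored in the cell membrane that bind EPH receptor tyrosine kinases on a neighbouring cell. Signals run forward into the cell with the receptor and in reverse into the cell with the ephrin, and they steer repulsion, adhesion, boundary formation and migration in epithelia, vessels and the nervous system. Class A ephrins (EFNA) are held by a glycosylphosphatidylinositol (GPI) anchor and bind mostly EPHA receptors. Class B ephrins (EFNB) span the membrane, bind mostly EPHB receptors and end inside the cell in a tail that is phosphorylated on tyrosine and binds PDZ-domain proteins. The study considered ephrin-EPH signaling between PCa cells and platelets, with EFNA4 considered on either cell and EFNB1 on platelets. The values here ask which ligands the cancer cells themselves transcribe.

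The class B tail is visible in the genes. The last 30 coding bases, stop codon included, are shown for the class B genes because this end carries the PDZ-binding tail that class A lacks, and capitals mark bases shared by all 3 genes (GENCODE release 29, GRCh38, coding strand):
EFNB1: AGCCCggCgAACATcTACTACAAGGTcTGA
EFNB2: AGCCCggCgAACATtTACTACAAGGTcTGA
EFNB3: AGCCCtcCaAACATcTACTACAAGGTaTGA
Of the 30 bases, 25 were the same in all 3 class B genes. In the 5 class A genes, aligned at the stop codon in the same way, 4 of 30 were. The coding sequence, stop codon included, was 1002 to 1041 bases long in class B and 606 to 717 bases in class A. Despite this likeness, no stretch of 31 bases in the transcripts of one ephrin gene occurred in those of another.

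The levels of most ephrins are uncertain by a factor of 10. Most entries above 1 TPM are deposited without their decimal mark, which was put back from the deposited mean and standard error of both lines. For EFNA2 and EFNB3 this left 1 pair of values. For the other 6 ephrins 2 pairs remained, the higher one being 10 times the lower in both lines, and both are given. Where levels of both lines stand side by side without a name, MDA PCa 2b comes first. The quotient of the lines is the same for either pair. A value at or above 1 TPM is so at either position. The higher position cannot hold for all genes of the table at once, since their total would then be 2416345.6 TPM for MDA PCa 2b cells, with 2140325.7 TPM for RC77 T/E cells, above the 1000000 TPM of a whole library. With the lower position for all genes, the totals were 75.1% and 68.2% of a whole library, so the lower one need not hold throughout either. Neither total says which position holds for a given ephrin.

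At the threshold of 1 TPM, 7 of the 8 ephrins were expressed in MDA PCa 2b cells and the same 7 in RC77 T/E cells. Among all 21382 genes, microRNA genes and pseudogenes included, 49.6% reached 1 TPM in MDA PCa 2b cells and 52.8% in RC77 T/E cells. The share among protein-coding genes alone was not computed. The exception among the ephrins was EFNA2, at 0.0849 TPM in MDA PCa 2b cells against 0.0430 TPM in RC77 T/E cells. At 1 TPM the repertoire of ligands was thus shared, and what differed was the balance between the classes. With a threshold of 5 TPM and the lower decimal positions, 5 ephrins counted in each line, but not the same 5. EFNA1 was among them only in MDA PCa 2b (5.01 against 2.18 TPM), and EFNB1 only in RC77 T/E (98.8 against 2.76 TPM). With the higher positions, the same 6 counted in both lines. Every class A ephrin was lower in RC77 T/E cells than in MDA PCa 2b cells, but EFNA4 only by a factor of 1.22. EFNA2 was near 0 in both lines. EFNB1 and EFNB2 were higher in RC77 T/E cells and EFNB3 was nearly equal. The signs of the class A differences were the same after centring on the median of all genes and after scaling to the upper quartile, which moved that median by 0.139 on the log2 scale. The EFNA4 difference was then small, at -0.12 and -0.14 on that scale. The upper quartiles were taken with every open decimal mark at its lower position, so this scaling depends on marks that are not settled.

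**Figure D1:**
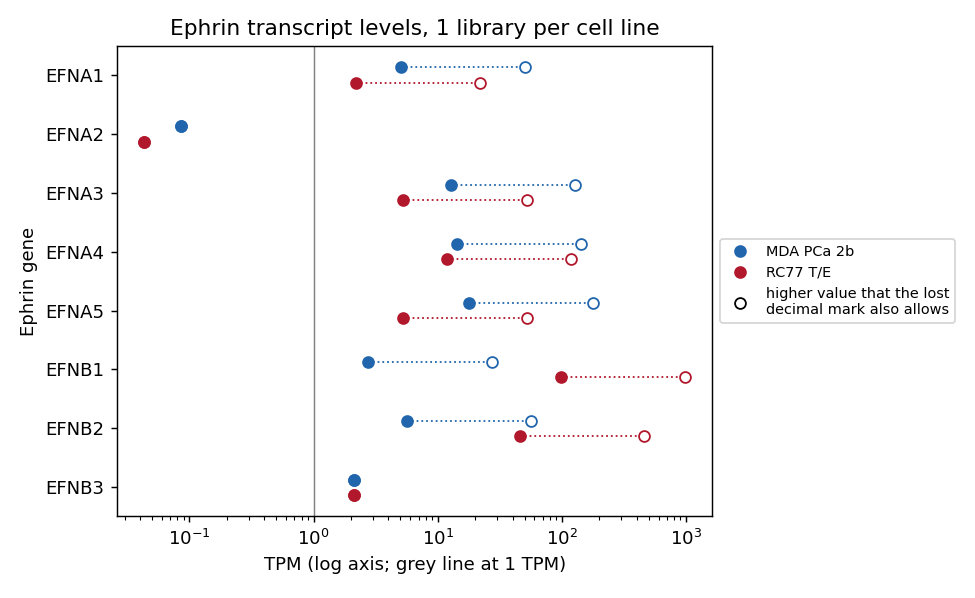
Level of each ephrin gene (rows) in TPM on a log axis, in MDA PCa 2b cells (blue) and RC77 T/E (red), 1 library each. Filled points are the lower value and open points the higher value that the lost decimal mark allows. At both positions RC77 T/E lies to the right for EFNB1 and EFNB2 and to the left for EFNA1, EFNA3, EFNA4 and EFNA5.

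EFNB1 (ENSG00000090776, chromosome X of GRCh38, 68829021 to 68842160) encodes ephrin-B1, the ligand whose loss causes craniofrontonasal syndrome. Its level was 2.76 TPM in MDA PCa 2b cells and 98.8 TPM in RC77 T/E cells, or 27.6 and 988 TPM at the higher position. RC77 T/E was thus 35.8 times as high. The log2 ratio (RC77 T/E over MDA PCa 2b), each value raised by a pseudocount of 0.1 TPM, was 5.11. Of the 12126 genes at 1 TPM or more in at least 1 line, 603 genes, or 4.97%, had a ratio as high or higher.

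EFNB2 (ENSG00000125266, chromosome 13, 106489745 to 106535662) encodes ephrin-B2, a marker of arterial endothelium and the preferred ligand of EPHB4. Its level was 5.69 TPM in MDA PCa 2b cells and 46.1 TPM in RC77 T/E cells, or 56.9 and 461 TPM. It was higher by a factor of 8.10 in RC77 T/E cells, a log2 ratio of 2.996. A ratio as high or higher was found for 1339 of the 12126 genes, or 11.04%.

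EFNB3 (ENSG00000108947, chromosome 17, 7705202 to 7711372), known for its part in guiding axons at the midline, showed no such difference. It was at 2.12 TPM in MDA PCa 2b cells against 2.11 TPM in RC77 T/E cells, and here the decimal mark is fixed. Its log2 ratio of -0.0068 lay close to the median of -0.16 over the 12126 genes, and its sign depended on the scaling: it was 0.15 after centring on that median and 0.13 after scaling to the upper quartile. The class B genes therefore spanned from equal levels to a 35.8-fold difference.

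Because EFNB1 and EFNB2 were the ephrins with the largest differences towards RC77 T/E, and EFNA5 the one with the largest towards MDA PCa 2b, their promoters are shown from 250 bases before to 50 bases after the RefSeq start (GRCh38.p14, on the strand of the gene). Capitals mark the GC box GGGCGG, the core of the motif that SP1 family factors bind, on either strand:
EFNB1 promoter, chrX:68828771-68829070, plus strand: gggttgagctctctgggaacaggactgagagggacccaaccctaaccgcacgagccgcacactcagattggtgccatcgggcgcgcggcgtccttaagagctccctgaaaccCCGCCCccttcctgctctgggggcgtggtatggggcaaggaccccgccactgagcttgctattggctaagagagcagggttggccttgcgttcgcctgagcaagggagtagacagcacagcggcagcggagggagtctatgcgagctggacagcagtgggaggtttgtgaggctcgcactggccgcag
EFNB2 promoter, chr13:106535613-106535912, minus strand: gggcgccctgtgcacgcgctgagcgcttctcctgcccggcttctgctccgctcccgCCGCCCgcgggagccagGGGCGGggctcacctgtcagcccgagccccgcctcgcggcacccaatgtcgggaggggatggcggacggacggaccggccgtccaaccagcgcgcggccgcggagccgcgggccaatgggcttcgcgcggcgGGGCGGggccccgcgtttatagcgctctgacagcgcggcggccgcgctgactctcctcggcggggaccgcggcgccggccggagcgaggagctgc
EFNA5 promoter, chr5:107670888-107671187, minus strand: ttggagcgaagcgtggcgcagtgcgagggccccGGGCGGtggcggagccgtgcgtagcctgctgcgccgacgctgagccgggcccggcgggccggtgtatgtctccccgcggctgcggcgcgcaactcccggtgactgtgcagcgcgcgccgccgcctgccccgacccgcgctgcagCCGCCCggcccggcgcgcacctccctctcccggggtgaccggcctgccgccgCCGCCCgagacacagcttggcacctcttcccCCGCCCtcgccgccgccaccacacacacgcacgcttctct
The EFNB1 promoter held 1 GC box, the EFNB2 promoter 3 and the EFNA5 promoter 4. RefSeq promoters were matched for 7 of the 8 ephrins, all except EFNB3, and each of the 7 held at least 1 GC box, against 44.6% of the 27305 RefSeq promoters. The CCAAT motif, found in 35.7% of all promoters, occurred 2 times in EFNB1, 2 times in EFNB2 and 1 time in EFNA4, and was not found in the other 4. TATAAA, found in 12.0% of all promoters, was matched only in EFNB2 among the 7. The E-box CACGTG, the AP-1 motif TGANTCA and the TEAD core GGAATG were not matched in any of the 7 windows, beside 7.43%, 7.76% and 14.05% of all promoters. Both strands were searched for each motif. The number of CpG dinucleotides per promoter ranged from 18 in EFNB1 to 49 in EFNB2, with a median of 14 over all promoters. The 7 windows were rich in G and C, from 58.3% in EFNA4 to 85.3% in EFNA2. The GC box itself holds only G and C, and its share among promoters of like base content was not computed. These matches are a description of the sequence, and no binding was measured.

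**Figure D2:**
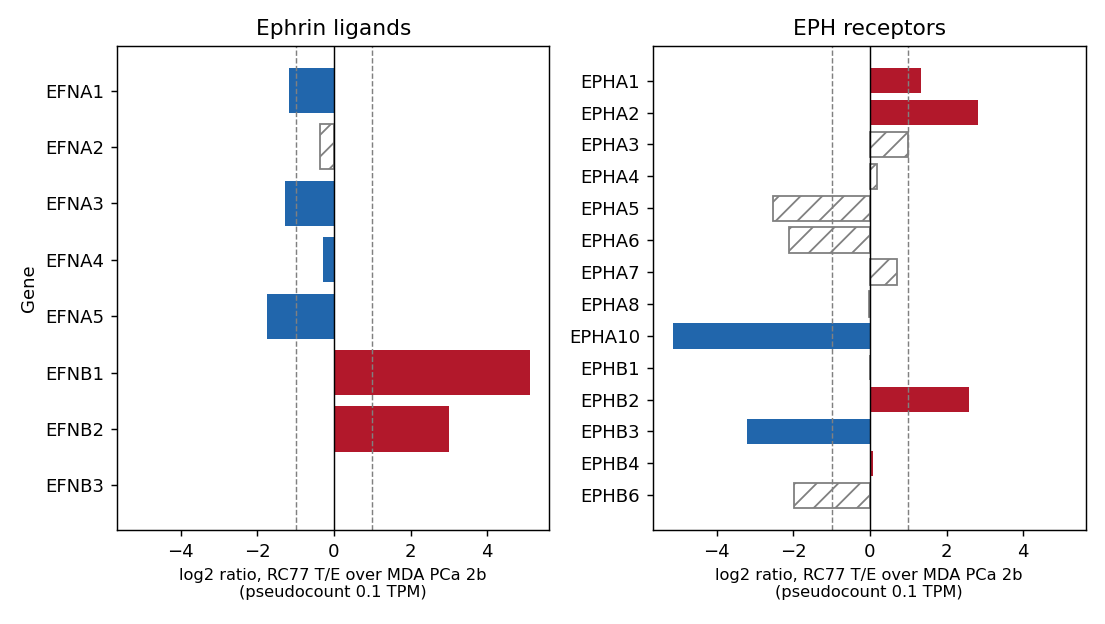
Bars give the log2 ratio, RC77 T/E over MDA PCa 2b, on the horizontal axis with 0.1 TPM added to each level, for the 8 ephrin genes on the left and the 14 EPH receptor genes on the right. Red bars are higher in RC77 T/E cells, blue bars in MDA PCa 2b cells, and hatched bars are genes under 1 TPM in both lines. Dashed lines mark a 2-fold difference, which EFNB1 and EFNB2 pass to the right and EFNA1, EFNA3 and EFNA5 to the left.

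EFNA5 (ENSG00000184349, chromosome 5, 107376894 to 107670937) had the lowest ratio among the ephrins. It encodes ephrin-A5, a repulsive cue in the mapping of retinal axons that also binds EPHB2, across the usual class border. Its level was 17.9 TPM in MDA PCa 2b cells and 5.24 TPM in RC77 T/E cells, or 179 and 52.4 TPM. MDA PCa 2b was 3.41 times as high, a log2 ratio of -1.75. A ratio as low or lower was found for 1431 of the 12126 genes, or 11.8%.

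EFNA1, EFNA3 and EFNA4 lie side by side on the long arm of chromosome 1, all on the plus strand. EFNA1 (ENSG00000169242, 155127876 to 155134899) encodes ephrin-A1, first found as a gene induced by tumor necrosis factor in endothelium and a main ligand of EPHA2. It was at 5.01 TPM in MDA PCa 2b cells and 2.18 TPM in RC77 T/E cells, or 50.1 and 21.8 TPM. EFNA3 (ENSG00000143590, 155078837 to 155087538) was at 12.9 and 5.24 TPM, or 129 and 52.4 TPM. The log2 ratio was -1.16 for EFNA1, which was higher by a factor of 2.30 in MDA PCa 2b cells, and -1.28 for EFNA3, which was 2.45 times as high. With a pseudocount of 1 TPM the ratio of EFNA1 was -0.92, under 2-fold.

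EFNA4 (ENSG00000243364, 155063737 to 155069553) is the ephrin that the study paired with EPHA receptors both ways, as a ligand on platelets and as a ligand on PCa cells. Its level was 14.4 TPM in MDA PCa 2b cells and 11.8 TPM in RC77 T/E cells, or 144 and 118 TPM. The quotient was 1.22 in favour of MDA PCa 2b, a log2 ratio of -0.28, so that EFNA4 was the class A gene closest to equal levels among those at 1 TPM or more. EFNA2 (ENSG00000099617, chromosome 19, 1285873 to 1301431) stayed under 1 TPM in both lines, and its quotient of 1.97 in favour of MDA PCa 2b rests on values near 0.

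The reads of EFNA4 and EFNA3 may be shared with a further annotated gene. AL691442.1, a protein-coding gene on the same strand, overlaps both in GENCODE release 29. Of the distinct stretches of 31 bases in the transcripts, 12.3% of those of EFNA4 and 43.2% of those of EFNA3 also occur in AL691442.1. The program Salmon, named in the submitters' processing notes, divides reads among transcripts by estimation, and the deposited table used here has no row for AL691442.1. How much of the EFNA3 level this touches was not tested. EFNB2 overlaps AL138689.1 on its own strand and AL138689.2 on the opposite strand, neither of which has a row, and no other ephrin gene overlapped an annotated gene.

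The genes around this cluster differed in both directions. Within 100 kb of the cluster, which spans 155063737 to 155134899, the table lists 17 other protein-coding genes, of which 14 reached 1 TPM in at least 1 line. Of these 14, 7 were higher in MDA PCa 2b cells, 2 of them by 2-fold or more, and 5 were higher by 2-fold or more in RC77 T/E cells. Among all genes at 1 TPM or more in a line, 24.0% and 23.1% differed by this much in these directions. ADAM15, next to EFNA4 on the side away from EFNA3, had a log2 ratio of 0.58, and SLC50A1 and DPM3, which follow EFNA1, had ratios of -0.70 and -2.25. DPM3, a subunit of the enzyme that makes dolichol phosphate mannose, a donor for GPI anchors, was at 446 TPM in MDA PCa 2b cells against 93.9 TPM in RC77 T/E cells. The median log2 ratio of the 14 neighbours was 0.021.

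**Figure D3:**
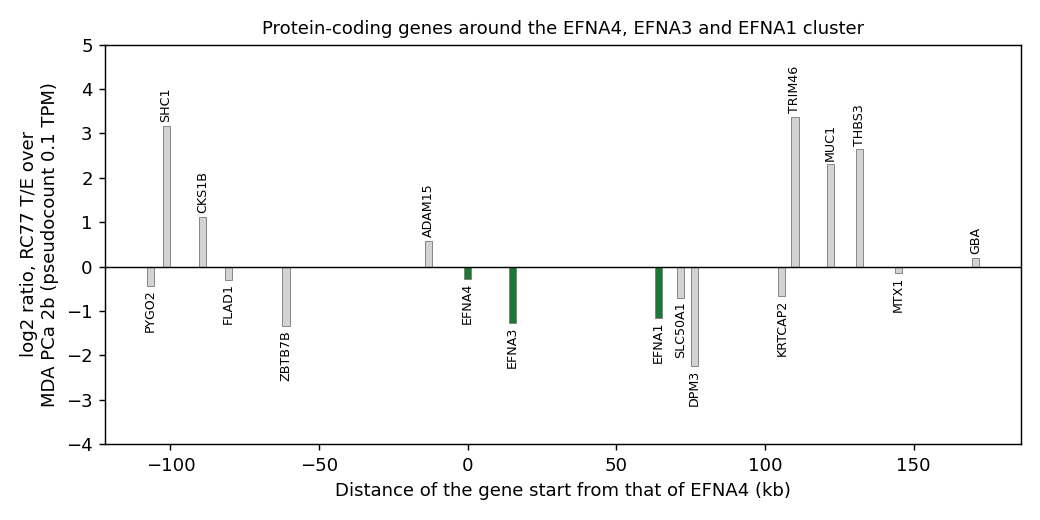
Log2 ratio, RC77 T/E over MDA PCa 2b, on the vertical axis with 0.1 TPM added to each level, of the protein-coding genes at 1 TPM or more in at least 1 line, by the distance of their start from that of EFNA4 in kb (horizontal axis). EFNA4, EFNA3 and EFNA1 (green) lie below 0, and the 14 other genes (grey) lie on both sides.

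Set side by side, 2 of the 7 ephrins expressed in either line (28.6%) were higher by 2-fold or more in RC77 T/E cells and both were of class B, while 3 of the 7 (42.9%) were higher by 2-fold or more in MDA PCa 2b cells and all were of class A. Among all 12126 genes at 1 TPM or more in a line, 23.1% were higher by 2-fold or more in RC77 T/E cells and 24.0% in MDA PCa 2b cells. A difference of this size was common between these lines, and with 7 genes the counts are a description only. The median log2 ratio was -1.22 over the 4 class A genes expressed in either line, and -1.16 with EFNA2 included. Over the 3 class B genes it was 2.996, beside the median of -0.16 over all 12126 genes.

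**Figure D4:**
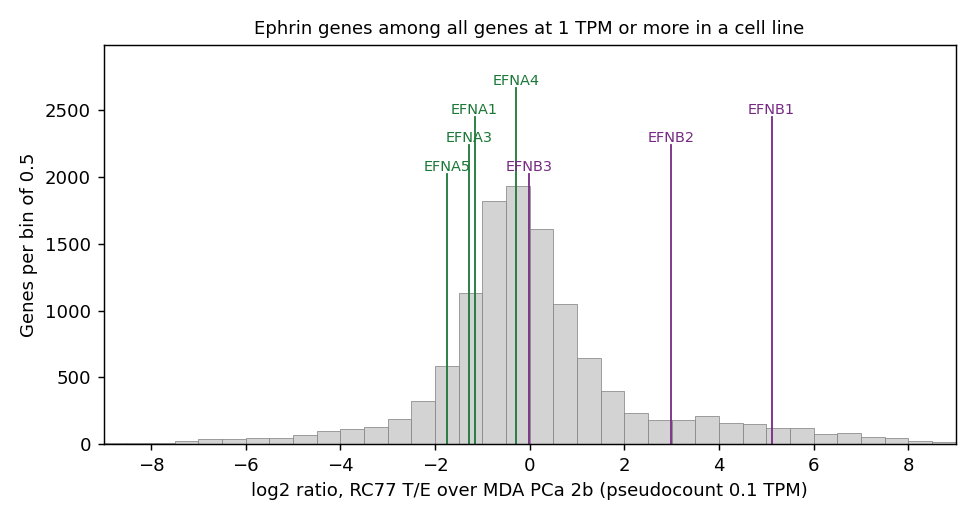
Number of genes (vertical axis) by log2 ratio (RC77 T/E over MDA PCa 2b) in bins of 0.5 (horizontal axis, 0.1 TPM added to each level), for the 12126 genes at 1 TPM or more in a line, shown between -9 and 9. Vertical lines mark the 4 class A (green) and 3 class B (purple) ephrins at 1 TPM or more, with EFNB2 at 2.996 and EFNB1 at 5.11 on the right.

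Summed over its 5 genes, class A reached 50.2 TPM in MDA PCa 2b cells and 24.5 TPM in RC77 T/E cells when each open decimal mark was at its lower position. Class B reached 10.6 and 147 TPM. Over all 16 combinations of positions, class A was higher by a factor of 1.37 to 2.94 in MDA PCa 2b cells, and over all 4 combinations, class B was higher by a factor of 9.10 to 29.3 in RC77 T/E cells. Class B thus made up 17.4% of the ephrin transcripts in MDA PCa 2b cells and 85.7% in RC77 T/E cells at the lower positions. Over all 64 combinations the share ranged from 2.06% to 63.3% in MDA PCa 2b cells, while it lay between 37.5% and 98.3% for RC77 T/E. Although these ranges overlap, the share was 35.04 to 79.9 percentage points higher in RC77 T/E cells in each combination. Whether the ephrins as a whole were higher in RC77 T/E cells is not settled, since the sum of all 8 was between 0.747 and 12.4 times that in MDA PCa 2b cells. In bulk RNA, fewer cells that express a gene and less RNA per cell cannot be told apart.

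**Figure D5:**
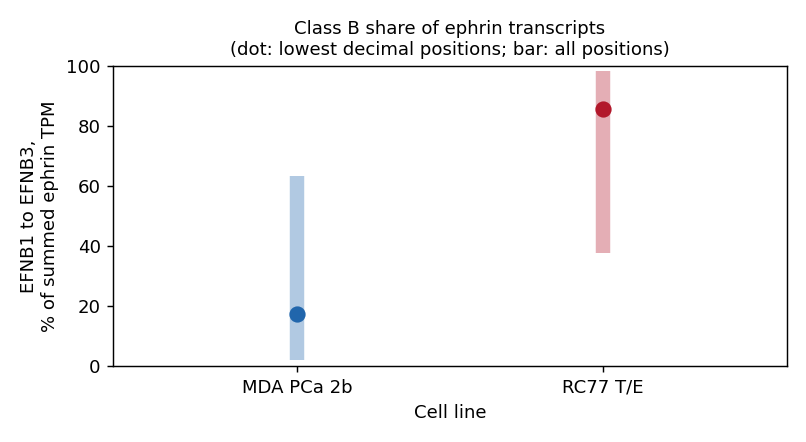
Share of EFNB1, EFNB2 and EFNB3 in the summed TPM of all 8 ephrins (vertical axis, percent) in each cell line. The dot is the share at the lower position of each open decimal mark, 17.4% (MDA PCa 2b) or 85.7% (RC77 T/E), while the bar spans all 64 combinations of positions.

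The order of the ephrins within a line is only partly determined. In MDA PCa 2b, 13 of the 28 pairs of genes had the same order at every position, because EFNA2 was the lowest and EFNB3 the next in all of them. In RC77 T/E this held for 17 of 28 pairs. There, EFNB1 was above EFNA1, EFNA3 and EFNA5 at every position, and EFNB2 was above EFNA1. At the lower positions EFNA5 led in MDA PCa 2b cells, followed by EFNA4 and EFNA3, and EFNB1 and EFNB2 led in RC77 T/E cells, followed by EFNA4.

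The receptors that these ligands bind were also compared. Of the 14 EPH receptor genes, 6 reached 1 TPM in MDA PCa 2b cells and 5 in RC77 T/E cells, where 49.6% and 52.8% of all genes did. Among the 6, 3 were higher by 2-fold or more in RC77 T/E cells, 2 higher by 2-fold or more in MDA PCa 2b cells, and EPHB4 was nearly equal, beside 23.1% and 24.0% of all genes at 1 TPM or more in a line.

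On the A side, EPHA2, the receptor of EFNA1 in many epithelia, was at 1.82 TPM in MDA PCa 2b cells and 13.5 TPM in RC77 T/E cells, or 18.2 and 135 TPM. Its log2 ratio of 2.82 was opposite in sign to the -1.16 of EFNA1. EPHA1 was at 9.76 and 24.5 TPM, with a log2 ratio of 1.32. Its decimal mark was taken at the lower position, where the text of the study places EPHA1 in these lines. EPHA10, a member of the family that lacks kinase activity, was at 3.57 TPM in MDA PCa 2b cells against 0.0033 TPM in RC77 T/E cells. The other 6 EPHA genes, EPHA3 to EPHA8, were under 1 TPM in both lines, the highest being EPHA6 at 0.969 TPM in MDA PCa 2b cells. EPHA4, the receptor known to bind ligands of both classes, was at 0.0298 and 0.0484 TPM, and EPHA3 is listed at 0 in MDA PCa 2b cells. EPHA5 was at 0.486 and 0.0018 TPM, EPHA7 at 0.0499 and 0.147 TPM, and EPHA8 at 0.0051 and 0.0036 TPM.

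On the B side, EPHB4 was the receptor with a fixed decimal mark and the highest such level, at 40.5 TPM in MDA PCa 2b cells and 43.1 TPM in RC77 T/E cells. It was higher by a factor of 1.07 in RC77 T/E cells, against 8.10 times for its ligand EFNB2. EPHB2 was at 1.52 and 9.70 TPM, with multiples of 10 and 100 also possible, a log2 ratio of 2.60. EPHB3, which the study named as the partner of platelet EFNB1, was at 18.3 TPM in MDA PCa 2b cells and 1.88 TPM in RC77 T/E cells, or 183 and 18.8 TPM. Its log2 ratio was -3.22, where that of EFNB1 was 5.11. EPHB6, another member without kinase activity, was at 0.576 and 0.0701 TPM, and EPHB1 is listed at 0 in both lines. Beside class A ligands that were lower in RC77 T/E cells, EPHA1 and EPHA2 were thus higher and EPHA10 was lower there. Beside the higher EFNB1 and EFNB2, EPHB2 was higher, EPHB3 lower and EPHB4 nearly equal.

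Genes that anchor, cleave or signal from ephrins were read from a list of 51. Of these, 42 reached 1 TPM in MDA PCa 2b cells and 44 did so in RC77 T/E cells. Among all genes, microRNA genes and pseudogenes included, 49.6% and 52.8% did. Among the 45 at 1 TPM or more in at least 1 line, 11 (24.4%) were higher by 2-fold or more in RC77 T/E cells and 6 (13.3%) in MDA PCa 2b cells, beside the 23.1% and 24.0% of all genes. Their median log2 ratio was 0.17, beside -0.16 over all genes. All 5 subunits of the GPI transamidase on the list, which attaches the anchor that class A ephrins need, reached 1 TPM in both lines. GPAA1 and PIGS were higher by 2-fold or more in MDA PCa 2b cells and PIGU in RC77 T/E cells. ADAM10, the protease that sheds ephrins, was at 37.3 and 55.7 TPM, or 373 and 557 TPM, a log2 ratio of 0.58.

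The 3 genes of the list with the highest ratios were TIAM1, PAK1 and RHBDL2. TIAM1, an exchange factor for RAC1 that ephrin-B signaling engages, was at 0.0050 TPM in MDA PCa 2b cells and 2.04 TPM in RC77 T/E cells, a log2 ratio of 4.35. PAK1, a kinase activated by RAC1 and CDC42, was at 1.31 and 17.5 TPM, or 13.1 and 175 TPM, a log2 ratio of 3.65. RHBDL2, a rhomboid protease that can cleave ephrin-B3, was at 1.01 and 5.82 TPM, or up to 101 and 582 TPM, a log2 ratio of 2.42. The lowest ratios were those of CHN1, RGS3 and GPAA1. CHN1, a RAC1 GTPase-activating protein of EPHA4 signaling, was at 2.12 TPM in MDA PCa 2b cells and 0.179 TPM in RC77 T/E cells, a log2 ratio of -2.995. RGS3, which carries a PDZ domain that binds the tail of class B ephrins, was at 20.1 and 6.97 TPM, or 201 and 69.7 TPM, a log2 ratio of -1.52.

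Among the 51 receptor and signaling genes at 1 TPM or more in a line, the gene nearest in log2 ratio was EPHA2 for EFNB2, at 2.82 against 2.996, and TIAM1 for EFNB1, at 4.35 against 5.11. It was RGS3 for EFNA5, PIGS for EFNA1, GPAA1 for EFNA3, NCK2 for EFNA4 and YES1 for EFNB3. With 2 libraries such likeness is a single number per gene, and nearness of this kind is a description only.

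The lines differed far beyond the ephrins. The 6 prostate basal markers (KRT5, KRT14, KRT15, KRT6A, TP63 and ITGB4) were all higher by 2-fold or more in RC77 T/E cells. Of 8 prostate luminal markers, 6 were higher by 2-fold or more in MDA PCa 2b cells, and KRT8 and KRT18 differed by less than 2-fold. In RC77 T/E, KLK3, KLK2 and HOXB13 are listed at 0, although the line is labelled as prostate cancer. EFNB1 and EFNB2 were higher in the line with the higher basal markers, and class A in the line with the higher luminal ones. With 1 library per line, every gene that differs sides with 1 of these sets. Line, medium and cell state cannot be told apart, and the part of cell state in the ephrin values was not tested. Other cell types gave little signal: the summed level was at most 9.16 TPM for 5 fibroblast markers, with COL1A1 at 8.24 TPM in RC77 T/E cells, at most 0.207 TPM for 3 endothelial markers, 0.0126 TPM for 3 leukocyte markers and 1.07 TPM for 5 platelet markers, with PF4 and GP9 at 0 in both lines. Of 20 genes used by every cell, 19 reached 1 TPM in both lines and EEF1A1 is listed at 0 in MDA PCa 2b cells. Why it is listed so was not tested. A listed 0 therefore need not mean that a gene is silent, and this holds for the markers and EPH receptors listed at 0 as well. None of the 8 ephrins is listed at 0. Differences of 2-fold or more also occurred among the 20 genes used by every cell. In all, 2 of them (10.0%, EEF1A1 included) were higher by this much in RC77 T/E cells and 3 (15.0%) in MDA PCa 2b cells. Among all genes at 1 TPM or more in a line, 23.1% and 24.0% were.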

How the data were processed

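Total RNA of both cell lines was made into paired-end, strand-keeping libraries. Per the labels, CASAVA, FastQC 0.11.9, Trimmomatic 0.38, Salmon 1.2.0 and GRCh38 belong to the submitters' processing notes, with no annotation release stated in the sources used here. The authors deposited 1 table of TPM values per locus with the mean and standard error of the 2 lines. The 22791 rows held 22704 distinct loci, and loci of one symbol were summed. Plain TPM had been assumed, but in 10361 table entries of MDA PCa 2b and 11082 of RC77 T/E the decimal mark was missing. Positions with 1 to 3 digits before it and at least 3 after it were tried, and those that gave the deposited mean and standard error were kept: 16284 rows had 1 pair and 6507 had 2 or 3. On 5000 simulated rows the true pair was among those kept in 5000, and it was the one kept in all 4049 rows with 1 pair. The lower position was used in sums unless stated. The totals at the lower positions were 751124.9 TPM for MDA PCa 2b and 682469.0 TPM for RC77 T/E, or 75.1% and 68.2% of a whole library, and at the higher positions 241.6% and 214.0%.

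Log2 ratios put RC77 T/E over MDA PCa 2b after 0.1 TPM was added to both values, which understates differences of low genes. With 1 library per line no test was made, and genes were counted as apart from a 2-fold difference, among those at 1 TPM or more in at least 1 line. Members and lists were chosen with earlier results of these data known. Named are all ephrins, all EPH receptors, the 3 highest and 3 lowest genes of the signaling list with ADAM10, overlapping genes, the nearest genes in ratio and the markers. The neighbours of the chromosome 1 cluster and further list members were added after values were seen. Gene positions are those of the table, and overlaps, transcripts and coding ends are from GENCODE release 29 on the same build. The ephrin starts differed by at most 416 bases and the ends by at most 1194 bases between both. Python 3.11.15, numpy 2.4.6, pandas 2.3.3 and matplotlib 3.10.9 were used. The platelet and tumor data of the study were not analysed here. The value of 1 marker gene and 1 motif are not reported here.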

Additional observations from a re-analysis of the deposited data

How the results depend on the processing

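In all, 160 values were recomputed under other settings: pseudocounts of 1 and 0.01 TPM, division by the upper quartile, subtraction of the median ratio, no filter, a filter on the mean, the highest position of each decimal mark, the largest locus, and thresholds of 0.5 and 5 TPM. Of these, 3 counts moved by more than 1.5 times. With a pseudocount of 1 TPM, 3 genes of the signaling list were at least 2-fold higher in MDA PCa 2b in place of 6. Without a filter, 5 EPH receptors were at least 2-fold higher in MDA PCa 2b in place of 2, because genes under 1 TPM entered the count. At a threshold of 5 TPM and the lower positions, 3 EPH receptors counted as expressed in MDA PCa 2b in place of 6. With the pseudocount of 1 TPM EFNA1 fell below 2-fold, at a log2 ratio of -0.92, which left 2 ephrins higher by 2-fold or more in MDA PCa 2b in place of 3. No ephrin ratio of 2-fold or more changed sign under these settings, and EFNB3 changed sign with both scalings. Part of the 160 values could not move. Each ephrin has 1 locus, so the largest locus gave the same ephrin values. The filter settings leave the ratio of a single gene as it is. The highest position scales both lines alike, so it alters an ephrin ratio only through the pseudocount. The number of unmoved values is therefore no measure of robustness. No replicate could be left out. No paired analysis was possible because only 1 library per line was analysed. As depth is unknown, no detection limit can be given for values near 0.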
